A study of Mus musculus with 9 samples.

Results

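The genes described here are 10 components of the Rap GTPase switch: the GTPases Rap1a and Rap1b, the GTPase-activating proteins Rap1gap, Rap1gap2 and Sipa1, and the exchange factors Rapgef1, Rapgef2, Rapgef3, Rapgef4 and Rapgef5. They are 10 of the 38293 genes in the count table, and all 10 had enough counts to be tested among 15318 genes. The members were selected on the measured difference between Arid1a cKO and control ventricles, because Rap1gap2 had the smallest p of all genes in that contrast. Their differences between genotypes are therefore given as values with their errors, without a p.

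RNA was sequenced from ventricles of mice at postnatal day 7 (P7). The 5 control libraries came from Arid1a f/f mice, in which both copies of Arid1a are floxed and no Cre is present. The 4 cKO libraries came from αMHC-Cre;Arid1a f/f mice, which carry the same floxed alleles and express Cre from the promoter of the alpha myosin heavy chain gene, so that deletion is aimed at cardiomyocytes and the other cells of the ventricle keep the floxed gene. No control carried the Cre transgene alone, so an effect of Cre itself and of the deletion cannot be told apart.

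Rap proteins are small GTPases that are active when bound to GTP and inactive when bound to GDP. Exchange factors load them with GTP, and GTPase-activating proteins speed up GTP hydrolysis and so return them to the inactive form. Active Rap1 promotes integrin-mediated adhesion and cadherin junctions, and in cardiomyocytes the cAMP-activated exchange factors, the Epac proteins, couple β-adrenergic signals to Rap.

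Total counts per library lay between 31011055 and 40073801. Arid1a, the targeted gene, had counts-per-million (CPM) values of 142, 128, 133, 147 and 148 in the control libraries, in replicate order, against 108, 113, 100.3 and 104 CPM in the cKO libraries. Its log2 fold change was -0.39 (SE 0.06, edgeR quasi-likelihood test, adjusted p = 0.0013), with no overlap between the groups. Within the Rps3a3-low libraries described next it was -0.33 (edgeR adjusted p = 0.0822). The count covers the whole gene and all cell types of the ventricle, so it does not give the share of cardiomyocytes in which the gene was deleted. The libraries also fell into a pair of sets by the level of Rps3a3, a gene closely similar to Rps3a1. Control replicates 1 and 2 and cKO replicates 1 to 3 had at most 0.521 CPM of Rps3a3, and the other 4 libraries had at least 99.7 CPM. Rps3a1 differed in the opposite direction, with 253 to 276 CPM in the low set and 70.8 to 75.7 CPM in the high set. Only 1 cKO library, replicate 4, was in the high set, and results are given within the sets where they bear on a member.

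Rap1gap2 (ENSMUSG00000038807) lies on the minus strand of GRCm38 chromosome 11, from 74383356 to 74610915, and is annotated with 5 transcripts. RefSeq places 4 starts in it, and at 2 of them the sequence after the start was found in an annotated GENCODE transcript. The 250 bases before each of these starts are shown because Rap1gap2 is the member that was called (from RefSeq, GRCm38.p6). The first window, chr11:74610916-74611165 on the minus strand, ends at the outermost start. The second, chr11:74590187-74590436, ends at a start inside the gene. Neither overlaps an annotated exon. Capitals mark a match to CAGGTG, the E-box bound by the repressors SNAI2 and ZEB.
Rap1gap2 outer start: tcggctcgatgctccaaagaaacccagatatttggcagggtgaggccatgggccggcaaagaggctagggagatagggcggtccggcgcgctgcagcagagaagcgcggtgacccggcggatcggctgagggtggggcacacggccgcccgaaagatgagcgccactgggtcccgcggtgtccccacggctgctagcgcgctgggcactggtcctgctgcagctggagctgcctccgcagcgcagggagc
Rap1gap2 inner start: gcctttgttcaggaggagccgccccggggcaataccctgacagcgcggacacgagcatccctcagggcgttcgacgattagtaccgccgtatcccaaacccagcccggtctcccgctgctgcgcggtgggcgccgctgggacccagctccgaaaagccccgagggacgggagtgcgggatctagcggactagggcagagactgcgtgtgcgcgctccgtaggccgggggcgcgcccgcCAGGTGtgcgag
GC content was 68.8% in the outer window and 70.0% in the inner window, against a median of 52.4% over 32536 distinct windows of the same length. Both strands were searched for CAGGTG, for GGAATG, which TEAD factors bind, for AAGGTCA, which ERR nuclear receptors bind, and for the MEF2 consensus. The match in the inner window, 12 bases before the start, was the only one in the 4 Rap1gap2 windows, and the outer window held none. Of 16 windows of the other members 5 held a match to at least 1 of these motifs. CAGGTG was among the matches in Rap1gap, Rapgef4 and Rapgef5. CAGGTG was present in 17.3% of all windows, GGAATG in 12.6%, AAGGTCA in 4.09% and the MEF2 consensus in 0.513%. The counts are per gene and do not tell which start was used, and no binding was measured.

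Rap1gap2 RNA was far lower in cKO ventricles, while the GTPases and exchange factors were close to their control levels. In replicate order, the control libraries held 88.0, 80.8, 77.6, 80.4 and 98.1 CPM of Rap1gap2, against 11.3, 10.02, 11.7 and 8.40 CPM in the cKO libraries. The lowest control library thus stood far above the highest cKO library. The control mean was 85.0 ± 8.28 CPM (SD, n = 5) against 10.4 ± 1.48 CPM for cKO (SD, n = 4), with raw counts between 347 and 3035. The log2 fold change was -3.04 (SE 0.11, 95% interval -3.29 to -2.79), a level 8.22-fold lower in cKO. By the size of the log2 fold change alone it ranked 45 among the 15318 genes. The same fit on the Rps3a3-low libraries alone gave -2.94. As a difference of log2(mean CPM + 0.5), which is not the fitted fold change and is the scale of the values given below by library set, it was -2.88 among Rps3a3-low and -3.27 among Rps3a3-high libraries, the latter with a single cKO library. The fitted value lay between -3.10 and -2.95 when any 1 library was left out.

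**Figure D1:**
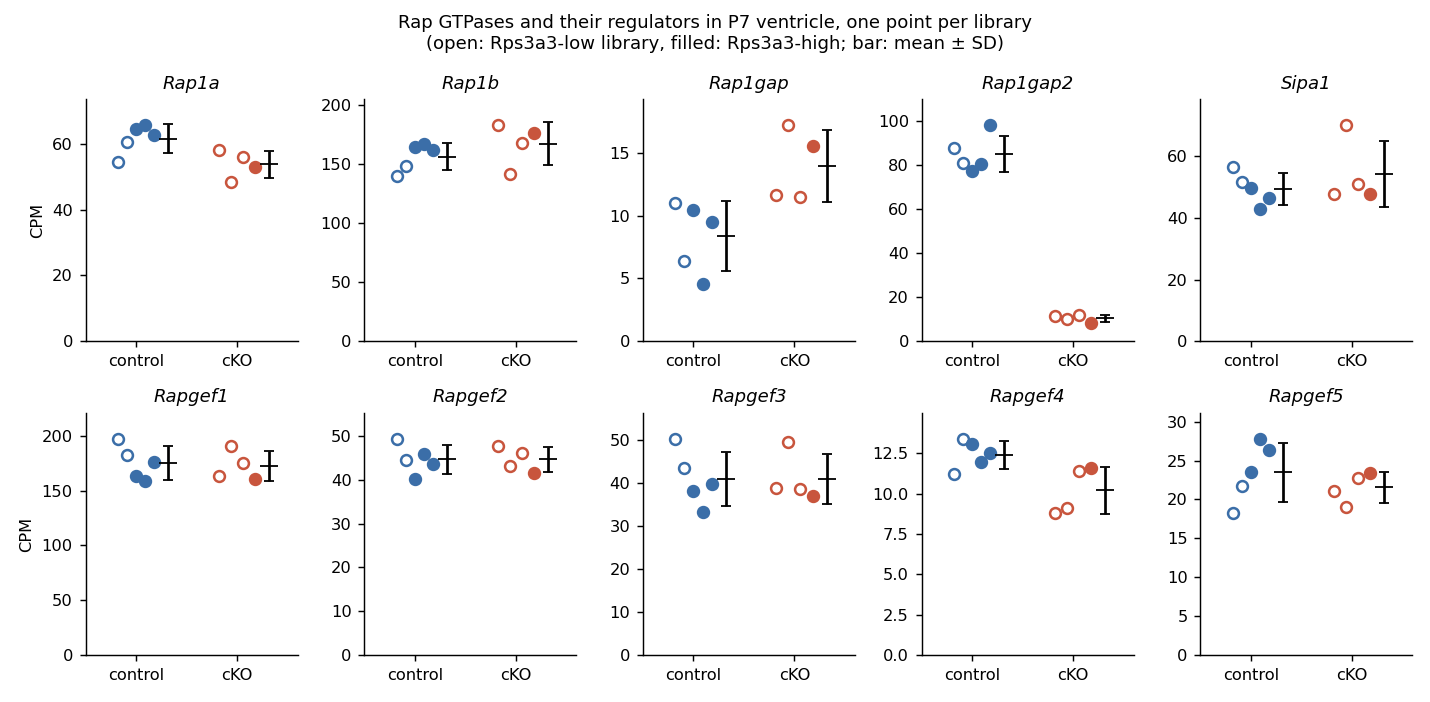
Level in CPM (y axis, from 0) of the 10 members in each library, control in blue and cKO in red, with open points for Rps3a3-low and filled points for Rps3a3-high libraries. Bars give the mean ± SD of 5 control and 4 cKO libraries. Rap1gap2 lies between 77.6 and 98.1 CPM in control and between 8.40 and 11.7 CPM in cKO.

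Of the 10 members, 1 was called, namely Rap1gap2 (a call needs an adjusted p below 0.05 together with more than a 1.5-fold difference), beside 6.72% of all genes tested that were called and 2.72% that were called lower. None of the other 9 members passed an adjusted p of 0.05 in the edgeR fit, beside 8.25% of all genes that passed higher and 8.03% that passed lower. Rap1gap2 and Rap1gap were the 2 members whose groups did not overlap, beside 16.7% of all genes tested. Since the contrast chose the members, nothing is read from these counts. The log2 fold change was within 0.3 of 0 for 8 members, and within that range for 70.0% of all genes. Its median over the members was -0.01, and over all genes it was 0.01.

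The other GTPase-activating members did not share the pattern of Rap1gap2. Rap1gap encodes a Rap-specific GTPase-activating protein and shares its name and function with Rap1gap2. The control libraries held 11.04, 6.37, 10.5, 4.56 and 9.47 CPM of it, and the cKO libraries 11.6, 17.2, 11.5 and 15.6 CPM. All cKO libraries were above all control libraries, but the highest control (11.04 CPM) and the lowest cKO (11.5 CPM) were nearly equal. The log2 fold change was 0.74 (SE 0.24, 95% interval 0.20 to 1.28). The difference of log2(mean CPM + 0.5) was 0.60 among Rps3a3-low and 0.89 among Rps3a3-high libraries. Rap1gap was not called by edgeR with all libraries, and was called by DESeq2 (log2 fold change 0.74) and by edgeR without control replicate 1 (0.86). It also had the widest relative spread of the members in control, with an SD of 33.4% of its mean.

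Sipa1 encodes a Rap GTPase-activating protein also known as SPA-1. It was at 56.6, 51.7, 49.7, 42.8 and 46.6 CPM in control and at 47.7, 70.1, 51.1 and 47.9 CPM in cKO. The groups overlapped, and cKO replicate 2 stood above every other library. The log2 fold change was 0.13 (SE 0.12, 95% interval -0.13 to 0.39), and -0.02 without that library.

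Because of these differences, the 3 GTPase-activating members made up different shares of their summed level in the 2 genotypes. Levels of different genes were compared as RPKM, which is CPM per kilobase of annotated exon. In control libraries Rap1gap2 and Sipa1 had near-equal levels, 11.9 ± 1.16 and 11.2 ± 1.18 RPKM (SD, n = 5), and Rap1gap had 1.30 ± 0.436 RPKM. In cKO libraries Rap1gap2 was at 1.45 ± 0.207 RPKM, Sipa1 at 12.3 ± 2.42 RPKM and Rap1gap at 2.18 ± 0.448 RPKM (SD, n = 4). Rap1gap2 was above Rap1gap per length in 5 of 5 control libraries and in 0 of 4 cKO libraries. Rap1gap2 held 45.8, 47.1, 45.7, 51.9 and 53.3% of the sum in the control libraries, against 11.1, 7.02, 10.9 and 8.12% in the cKO libraries. The share of Sipa1 was 46.0 ± 3.15% in control and 77.0 ± 1.92% in cKO, and that of Rap1gap was 5.29 ± 1.53% and 13.7 ± 2.15%. The summed level was 24.4 ± 1.99 RPKM in control (21.6 to 26.8) and 15.9 ± 2.72 RPKM in cKO (14.2 to 19.9), with no overlap.

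**Figure D2:**
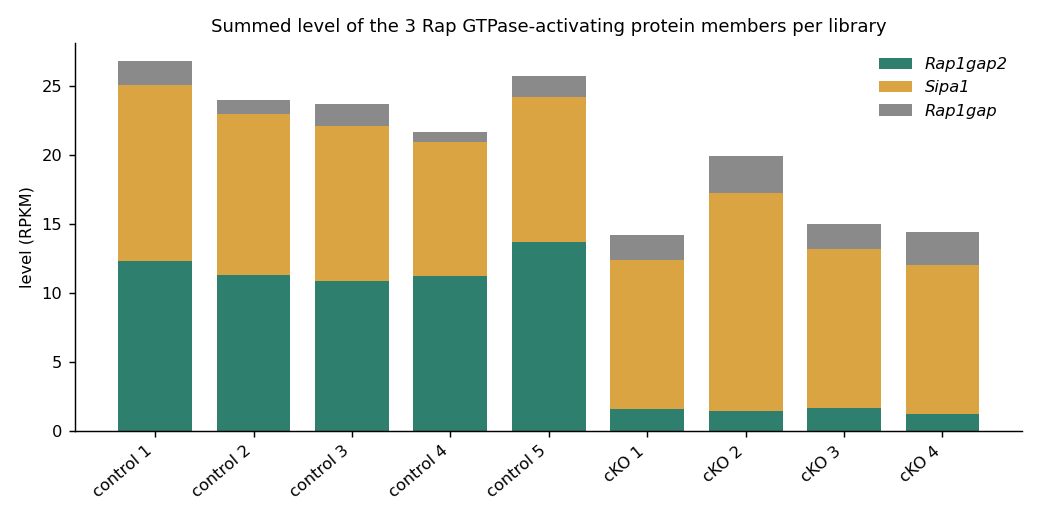
Stacked bars of the level of Rap1gap2, Sipa1 and Rap1gap in each library, in RPKM (y axis, from 0), with 1 bar for each of the 5 control and 4 cKO libraries. The Rap1gap2 part is at least 10.8 RPKM in every control bar and at most 1.63 RPKM in every cKO bar, while Sipa1 has at least 9.70 RPKM in all bars.

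When 7 further GTPase-activating proteins with activity on Rap were added, Rap1gap2 made up 22.5 ± 1.67% of the summed level of the 10 genes in control and 3.09 ± 0.663% in cKO. The sum of these 10 genes was 52.8 ± 4.11 RPKM in control and 47.4 ± 4.71 RPKM in cKO, and the ranges overlapped (48.5 to 58.9 and 42.1 to 53.3 RPKM). In control, Sipa1l2, a SPA-1-like protein, had a share of 23.2 ± 0.915%, which overlapped that of Rap1gap2 and was above it in 3 of the 5 libraries. These sums weigh RNA of all cell types equally and say nothing of protein or activity.

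The Rap GTPases themselves were abundant, and their levels in the 2 genotypes overlapped. Rap1b was at 140.2, 148, 165, 168 and 162 CPM in control and at 183, 142, 169 and 177 CPM in cKO, so that the groups overlapped (log2 fold change 0.10, SE 0.08, 95% interval -0.08 to 0.28). Rap1a was at 54.4, 60.5, 64.5, 65.6 and 62.8 CPM in control and at 58.0, 48.4, 55.9 and 52.9 CPM in cKO. Its log2 fold change was -0.20 (SE 0.08, 95% interval -0.36 to -0.03), with 1 control library inside the cKO range. The log2 fold changes of both GTPases were within 0.3 of 0, as were those of 70.0% of all genes tested. Of the annotated 75-base stretches of Rap1a, 4.48% also occur in Gm9392, and none of those of Rap1b, Rap1gap2, Rap1gap or Sipa1 occur in another annotated gene. Reads of that length, the read length of the study, therefore did not have to be split between the GTPase-activating members.

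The exchange factors overlapped between the genotypes without exception. Rapgef1 encodes an exchange factor that CRK adaptors recruit. It was the most abundant of them, at 197, 183, 163, 159 and 176 CPM in control and 163, 190.4, 175 and 161 CPM in cKO, with a log2 fold change of -0.03 (SE 0.08, 95% interval -0.19 to 0.14). Rapgef2, a PDZ-domain exchange factor, lay between 40.1 and 49.3 CPM in control and between 41.6 and 47.7 CPM in cKO (log2 fold change 0.00, 95% interval -0.16 to 0.16). Both genes had nearly identical means in the 2 genotypes.

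Rapgef3 and Rapgef4 encode Epac1 and Epac2, the exchange factors that cAMP switches on directly. Rapgef3 was at 50.1, 43.4, 38.1, 33.3 and 39.7 CPM in control and at 38.7, 49.5, 38.5 and 36.9 CPM in cKO (log2 fold change 0.00, SE 0.12, 95% interval -0.26 to 0.26). Without cKO replicate 2 the log2 fold change was -0.10. Its mean was the same in both groups at 40.9 CPM, while single libraries differed by more than the groups did. By library set, its difference of log2(mean CPM + 0.5) was -0.14 among Rps3a3-low and -0.003 among Rps3a3-high libraries. Rapgef4 was at 11.2, 13.4, 13.1, 12.0 and 12.5 CPM in control and at 8.80, 9.09, 11.4 and 11.6 CPM in cKO. The cKO libraries lay at or below the lower part of the control range, and the log2 fold change was -0.28 (SE 0.11, 95% interval -0.52 to -0.04). The difference of log2(mean CPM + 0.5) was -0.32 among Rps3a3-low and -0.11 among Rps3a3-high libraries. Rapgef5, an exchange factor that is not regulated by cAMP, lay between 18.2 and 27.7 CPM in control and between 19.0 and 23.4 CPM in cKO (log2 fold change -0.12, 95% interval -0.38 to 0.13). Its difference of log2(mean CPM + 0.5) turned direction between the sets, with 0.07 among Rps3a3-low libraries and -0.14 among the others.

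The exchange factors were present in similar proportions in both genotypes. Rapgef1 made up 64.0 ± 0.586% of their summed RPKM in control and 64.5 ± 0.694% in cKO, Rapgef3 17.3 ± 1.37% and 17.8 ± 1.396%, and Rapgef4 5.05 ± 0.583% and 4.25 ± 0.750%. Antisense transcripts overlap Rapgef3 and Rapgef4, and whether reads were counted by strand is not stated. The highest level of any of these transcripts was 0.311 CPM for Rapgef3 and 0.174 CPM for Rapgef4, far under the levels of both genes. Counting without strand may leave reads of an overlap out of both genes, which these low levels cannot show. Stretches of 75 bases shared with antisense transcripts made up 3.31% of those of Rapgef3 and 1.37% of those of Rapgef4.

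Ranked by RPKM in control libraries, Rap1b led with 54.3 ± 4.08 RPKM (SD, n = 5), followed by Rapgef1 at 23.8 ± 2.09 RPKM and Rap1a at 23.6 ± 1.71 RPKM, whose ranges overlapped. Rap1gap2 and Sipa1 came next and also overlapped each other. Rapgef3 followed at 6.46 ± 0.995 RPKM and Rapgef2 at 3.18 ± 0.238 RPKM, each separated from its neighbours in the order. Rapgef4 (1.86 ± 0.130 RPKM), Rapgef5 (1.84 ± 0.295 RPKM) and Rap1gap (1.30 ± 0.436 RPKM) stood last and each overlapped the next. With the longest transcript as the length, Sipa1 (13.0 RPKM) and Rap1gap2 (12.9 RPKM) exchanged places, as did Rapgef5 (3.48 RPKM) and Rapgef4 (2.97 RPKM). The same change of length raised Rapgef2 to 6.42 RPKM and Rap1gap to 2.03 RPKM. It put the share of Rapgef1 among the exchange factors at 54.8% in control and 55.2% in cKO, and that of Rap1gap2 among the 3 GTPase-activating members at 46.4% and 8.40%.

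**Figure D3:**
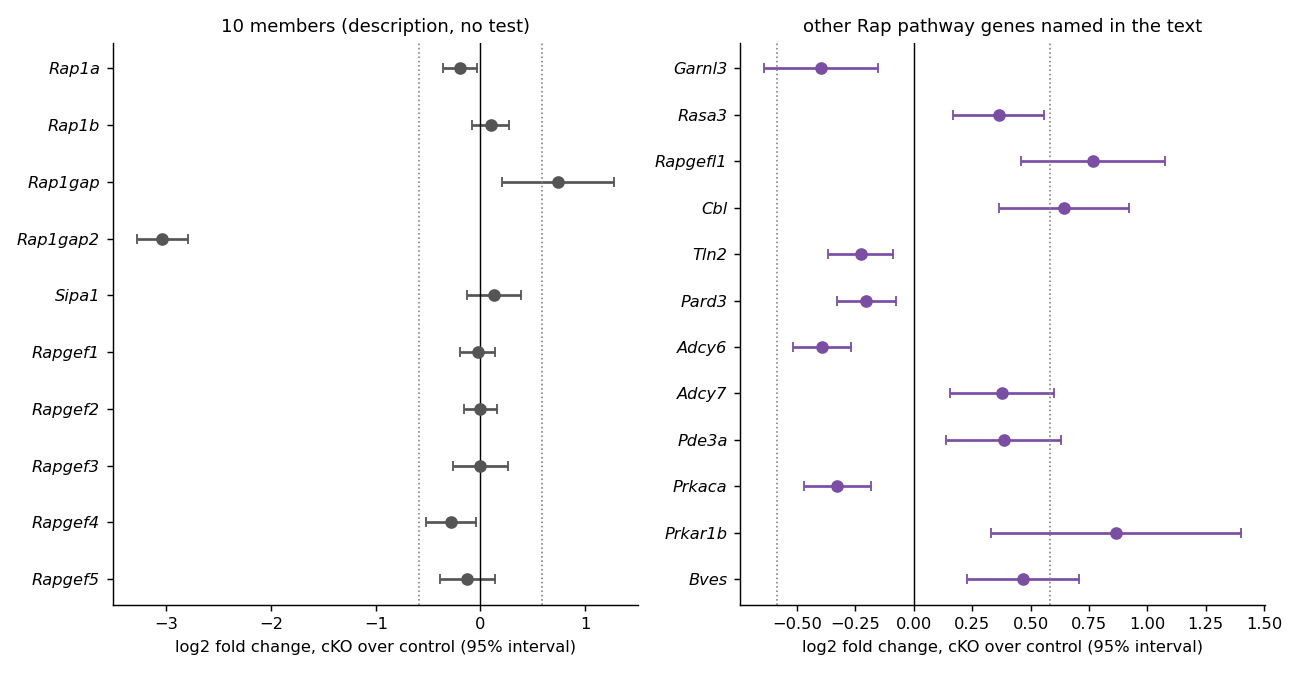
Log2 fold change of cKO over control (x axis) with 95% intervals for the 10 members (left, a description) and for 12 other Rap pathway genes (right). Dotted lines mark a fold change of 1.5 in either direction. Rap1gap2 at -3.04 lies far outside the range from -0.40 to 0.87 of the other pathway genes shown.

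Genes around the members were described with lists of 86 genes by role, of which 84 could be tested. In these lists 9 genes rose and 8 fell at an adjusted p under 0.05 (edgeR quasi-likelihood test, adjusted over all genes), together 20.2% of the genes tested, and 3 were called. Over all genes tested 8.25% passed higher, 8.03% passed lower and 6.72% were called. The median log2 fold change of the 84 genes was -0.05, beside 0.01 for all genes. The number that passed was 17 with all libraries, 11 without control replicate 2, 11 without control replicate 4, 8 without control replicate 5, 9 without cKO replicate 3 and 8 without cKO replicate 4. It was 7 within the Rps3a3-low libraries alone, 23 with DESeq2 and 24 with the library set as a term. Over all alternatives the number that rose lay between 4 and 13 and the number that fell between 2 and 12.

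Among 7 other GTPase-activating proteins tested, 2 rose, among them Rasa3, and Garnl3 fell. Rasa3, a GTPase-activating protein for Ras and Rap, was at 47.8 ± 3.71 CPM in control and 61.5 ± 7.497 CPM in cKO (log2 fold change 0.36, SE 0.09, adjusted p = 0.0154 by edgeR). It passed with every library left out in turn but not within the Rps3a3-low libraries alone (0.26, edgeR adjusted p = 0.315). Garnl3, which holds a Rap GTPase-activating domain, fell by 0.40 on the log2 scale (SE 0.11, edgeR adjusted p = 0.0311). It passed in only 3 of the 9 fits that left out 1 library, with an adjusted p of up to 0.09, without cKO replicate 3, and missed 0.05 within the Rps3a3-low libraries (edgeR adjusted p = 0.241). Of the 7, 4 did not pass, and the median of the 7 was 0.24.

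None of the 3 Rap2 GTPases passed. Of 8 other exchange factors 1 passed: Rapgefl1, a Rapgef-like protein, which was called at 2.90 ± 0.329 CPM in control and 4.94 ± 0.590 CPM in cKO (log2 fold change 0.77, SE 0.14, adjusted p = 0.0031 by edgeR). Of 8 adaptors of exchange factors 1 passed: Cbl, a ubiquitin ligase that binds CRK adaptors, called at 7.53 ± 1.38 and 11.7 ± 0.283 CPM (log2 fold change 0.64, SE 0.13, adjusted p = 0.0049 by edgeR). For both genes the groups did not overlap, and both passed with every library left out in turn. Within the Rps3a3-low libraries Cbl passed, and Rapgefl1 had a log2 fold change of 0.71 and an adjusted p of 0.105 by edgeR.

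Of 19 Rap effectors none rose and 3 fell, each by less than a fold of 1.5. Tln2, a talin that links integrins to actin, changed by a log2 value of -0.23 (SE 0.06, adjusted p = 0.0305), and Pard3, a polarity scaffold, had -0.20 (SE 0.06, adjusted p = 0.0311). Tln2 passed in 3 and Pard3 in 2 of the 9 fits that left out 1 library, with the highest adjusted p, 0.0895 and 0.0909, without cKO replicate 3. Neither passed within the Rps3a3-low libraries (edgeR adjusted p = 0.138 and 0.37). No gene of the 13 integrin and cadherin outputs passed with all libraries, and their median log2 fold change was -0.04. Within the Rps3a3-low libraries Itgb1, a beta integrin, passed (log2 fold change 0.39, edgeR adjusted p = 0.0292), and no other gene of this list did. With all libraries Itgb1 had 0.41 (SE 0.15, edgeR adjusted p = 0.0958), and its groups overlapped.

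The cAMP branch, which feeds the Epac proteins, held genes that moved in both directions. Of 15 genes of cAMP supply and breakdown 3 rose and 2 fell. Adcy6, a main adenylyl cyclase of cardiomyocytes, was at 359 ± 19.6 CPM in control and 273 ± 6.09 CPM in cKO, without overlap (log2 fold change -0.39, SE 0.06, adjusted p = 0.00069 by edgeR). Adcy7, another adenylyl cyclase, changed by a log2 value of 0.38 (SE 0.10, adjusted p = 0.0255 by edgeR), and Pde3a, a phosphodiesterase that breaks down cAMP, had 0.39 (SE 0.11, adjusted p = 0.0369). Adcy6 passed with every library left out, whereas Adcy7 passed in 4 and Pde3a in 2 of these 9 fits, with adjusted p up to 0.0723 (without cKO replicate 3) and 0.0896 (without control replicate 3). Within the Rps3a3-low libraries Adcy6 and Pde3a passed and Adcy7 did not (edgeR adjusted p = 0.286).

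Of 11 other cAMP sensors and anchors 2 rose and 2 fell. Prkaca, a catalytic subunit of protein kinase A, was at 374 ± 25.7 CPM in control and 298 ± 14.7 CPM in cKO (log2 fold change -0.33, SE 0.07, adjusted p = 0.0049 by edgeR). Bves, a cAMP-binding Popeye domain protein, was at 95.6 ± 6.79 and 132 ± 25.9 CPM (log2 fold change 0.47, SE 0.11, adjusted p = 0.0129 by edgeR). Neither of these genes overlapped between the groups, and both passed with every library left out and within the Rps3a3-low libraries. Prkar1b, a regulatory subunit of protein kinase A, was called at 2.69 ± 0.539 and 4.90 ± 1.996 CPM (log2 fold change 0.87, SE 0.25, adjusted p = 0.0318 by edgeR), but its groups overlapped. Its log2 fold change was 0.55 (adjusted p = 0.101 by edgeR) without cKO replicate 4, and it also missed 0.05 without control replicate 1, 3 or 5 or cKO replicate 2. Within the Rps3a3-low libraries it was 0.43 (edgeR adjusted p = 0.44).

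**Figure D4:**
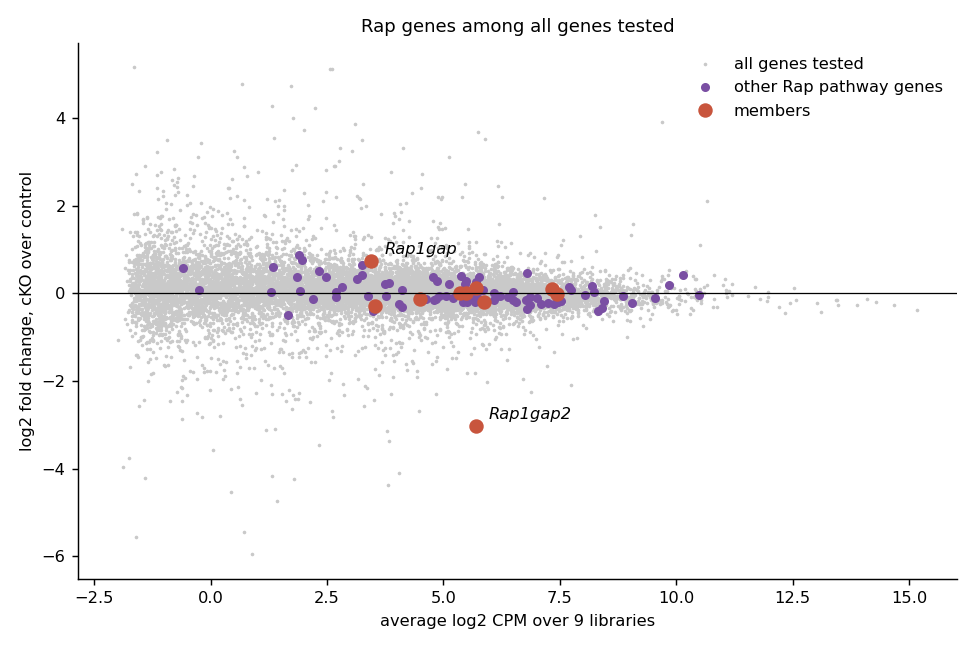
Log2 fold change of cKO over control (y axis) against average log2 CPM over 9 libraries (x axis) for the 15318 genes tested in grey, with the 84 other Rap pathway genes in purple and the 10 members in red. Rap1gap2 stands at -3.04, below the other members, which lie between -0.28 and 0.74, and the other pathway genes, which lie between -0.49 and 0.87.

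No gene tested near Rap1gap2 on chromosome 11 showed a difference of its size. Within 500 kb of its body 45 other genes were in the table, of which 9 were tested, all upstream of Rap1gap2. The other 36, among them 23 olfactory receptor genes, had at most 9 counts in any library. Of the 9 genes tested 2 fell and none rose, and none was called, beside 8.03% of all genes that passed lower. Cluh, which encodes an RNA-binding protein that acts on messengers for mitochondrial proteins, was at 384 ± 25.1 CPM in control and 318 ± 24.4 CPM in cKO (log2 fold change -0.27, SE 0.07, adjusted p = 0.0199 by edgeR). Pafah1b1, which encodes LIS1, a regulator of dynein, was at 376 ± 36.2 and 307 ± 23.0 CPM (log2 fold change -0.29, SE 0.08, adjusted p = 0.0266 by edgeR). Cluh missed 0.05 without cKO replicate 1 (adjusted p = 0.0506) or 3 (0.0662), and Pafah1b1 without control replicate 3 (0.0573), 4 (0.0549) or 5 (0.0518) or cKO replicate 2 (0.0723), by edgeR. Neither passed within the Rps3a3-low libraries (edgeR adjusted p = 0.113 and 0.345).

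Among the genes that border Rap1gap2, Olfr412 and the small RNA gene Gm22993 had 0 counts in every library. Ccdc92b, the nearest gene tested, starts 8689 bases upstream of the outer start and was at 0.942 ± 0.274 CPM in control and 0.783 ± 0.123 CPM in cKO (log2 fold change -0.27, SE 0.26, adjusted p = 0.52 by edgeR). At such a low level only a large difference would be detectable. No annotated gene overlaps Rap1gap2, so its counts do not depend on reads of an overlapping gene.

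**Figure D5:**
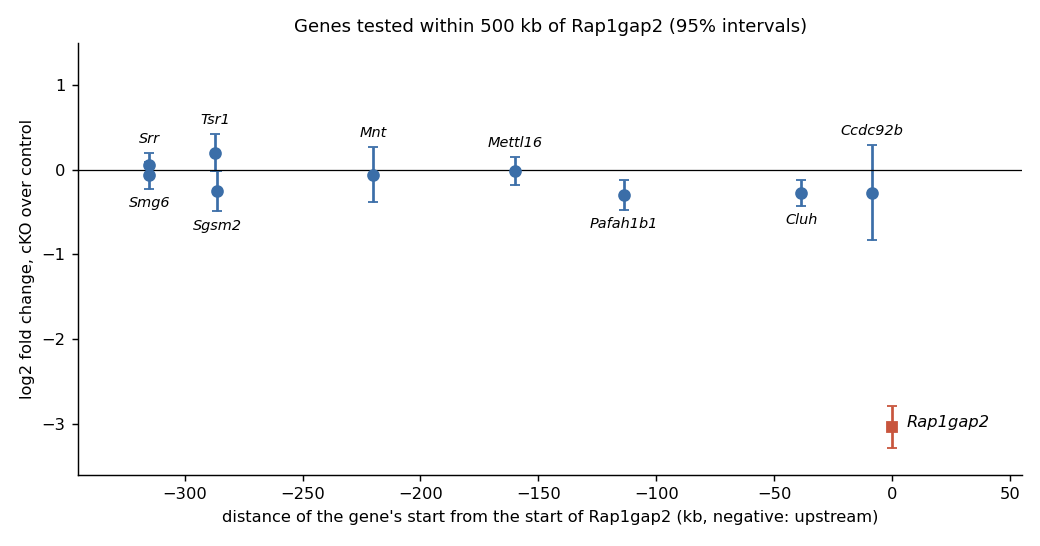
Log2 fold change of cKO over control with 95% intervals (y axis) for Rap1gap2 (red square) and the 9 tested genes within 500 kb (blue), by the distance in kb between their annotated starts (x axis, negative upstream). All 9 neighbours lie between -0.29 and 0.20, against -3.04 for Rap1gap2.

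As a description, genes were ordered by how near their values over the libraries were to those of Rap1gap2, a measure that rests on the contrast that chose Rap1gap2 and so returns genes that are also far lower in cKO. For 13334 genes with a mean of at least 1 CPM, the log2(CPM + 0.5) of each library relative to the control mean was compared with that of Rap1gap2 over the 9 libraries by the root mean square difference. Among the 5 nearest were Igsf1 (0.195), Lingo3 (0.244), Gm15543 (0.250) and 4631405J19Rik (0.317), all in log2 units. Their fitted log2 fold changes were -3.46, -4.74, -3.14 and -3.37, against -3.04 for Rap1gap2. For the other 9 members the value lay between 1.82 (Rapgef4) and 2.52 (Rap1gap). Igsf1, an immunoglobulin superfamily gene on the X chromosome, was at 8.31 ± 0.835 CPM in control and 0.756 ± 0.208 CPM in cKO. The added 0.5 CPM shortens the differences of low genes, and Lingo3, at 0.168 CPM in cKO, is near on this scale although its fitted value is far from that of Rap1gap2. Igsf1 and Lingo3 met the minimum mean of 1 CPM through their control libraries. Rap1gap2, with 85.0 CPM in control, had a higher control level than any of the 5. 4631405J19Rik on chromosome 2 was next, at 23.7 ± 0.746 CPM in control and 2.30 ± 0.853 CPM in cKO.

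The difference between the Rps3a3-low and Rps3a3-high libraries was not used to choose the members and could be tested, with genotype in the model. By edgeR none of the 10 members passed an adjusted p of 0.05, beside 4.81% of all genes tested. Of the members 3 had an unadjusted p under 0.05, a level at which the share of all genes was not counted. These were Rapgef5 (high over low, log2 difference 0.29, SE 0.10, adjusted p = 0.096), Rapgef3 (-0.28, SE 0.10, adjusted p = 0.11) and Rapgef1 (-0.17, SE 0.06, adjusted p = 0.13). By DESeq2 Rapgef5 passed (adjusted p = 0.0468). For Rap1gap2 the set difference was -0.12 (SE 0.10, adjusted p = 0.50 by edgeR), and 0.02 without cKO replicate 4, the only cKO library of the high set.

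Bulk RNA does not separate a smaller number of cells of a type from less RNA per cell. Summed over 7 cardiomyocyte markers the level was 36161 to 43871 CPM in control and 32146 to 38716 CPM in cKO, and 1 of the 7 fell, whereas 6 fibroblast markers summed to 2797 to 3539 CPM in control and 3638 to 4324 CPM in cKO, without overlap, with 3 rising. Endothelial markers summed to 1556 to 1678 and 1501 to 1636 CPM, with 1 of 7 falling. Of the 4 atrial markers Nppa and Myl7 were called higher and the others did not pass. The sum of the 4 was 162 to 252.6 CPM in control and 901 to 2572 CPM in cKO. No marker of mural cells, macrophages, lymphocytes, platelets, erythroid cells, or neurons and Schwann cells passed, and the lymphocyte markers summed to at most 4.90 CPM in any library. The part of these shifts in the differences of the Rap genes was not tested.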

How the data were processed

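Ventricular RNA at P7 was measured by poly(A) RNA sequencing in 9 libraries, 5 control and 4 cKO libraries grouped by their labels. Raw read counts per gene were deposited by the authors in 1 table, with no normalization. Per the study's methods the libraries were stranded and mapped to mm10 as single-end reads of 75 bases. The submitters' processing notes name STAR 2.4.2a and HTSeq 0.6.1, and the annotation and strand setting are not given in the sources used here. The methods and a legend give different numbers of controls; every library with a control label (5) was kept. A legend of the study counts the replicates as hearts, so each library is taken as 1 heart.

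The 10 genes, the other gene lists and the marker lists were chosen with earlier results of these data known. Of 38293 identifiers, 36429 were found in GENCODE M21 (GRCm38), with 99.82% of the counts. Counts were tested in R 4.3.3 with the edgeR 4.0.16 quasi-likelihood F test (TMM, filterByExpr with a minimum count of 10, robust fit, genotype alone), two-sided, with Benjamini-Hochberg adjustment over 15318 genes. A gene passed at an adjusted p under 0.05 and was called if its fold change also exceeded 1.5. DESeq2 1.42.0, other scalings and filters, the replicate number as a block, the library set, Xist and leaving out each library were alternatives. CPM and RPKM used TMM-scaled totals, and RPKM used the union of annotated exons. Scripts were tested on simulated data. Genes named are the 10 members, Arid1a, per list the called genes and the 3 largest changes that passed, neighbours that passed or border Rap1gap2, the 5 nearest patterns, and called markers. Sipa1l2 and Itgb1 were named after their values were seen. Promoter windows came from RefSeq (GRCm38.p6) for 9 members. Results of 3 single genes that the rule names are not reported here. A planned comparison of protein sequences was not run. Same-numbered replicates were not paired (correlations of their deviations -0.05, 0.07, -0.01 and 0.30).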

Additional observations from a re-analysis of the deposited data

Results flagged for a closer look

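A library was taken to stand apart where the gap between the highest or lowest value of its group and the next value, divided by the range of the group, exceeded Dixon's 95% critical value. In this search 27 genes were examined in 54 groups and 3 groups stood out. At that critical value chance alone marks about 1 in 20 such groups. All 3 were cKO replicate 2: Sipa1 at 70.1 CPM, Rapgef3 at 49.5 CPM and Pafah1b1 at 272.3 CPM. The other cKO libraries had 47.7 to 51.1 CPM of Sipa1 and 36.9 to 38.7 CPM of Rapgef3. Without this library the log2 fold change was -0.02 for Sipa1 and -0.10 for Rapgef3, both values without a test, and Pafah1b1 no longer passed (-0.24, edgeR adjusted p = 0.0723).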

How the results depend on the processing

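The log2 fold change of Rap1gap2 stayed between -3.10 and -2.94 over its 18 alternatives, as a description. The number of members called was 2 with DESeq2 and lay between 1 and 2 when 1 library was left out, the second being Rap1gap. The number of all genes called was 620 within the Rps3a3-low libraries, 2493 genes passed with no fold threshold, and leaving out 1 library gave 909 to 1171. Of the other Rap pathway genes 17 passed; 9 passed with the replicate number as a block, 7 within the Rps3a3-low libraries, 11 with Xist as a covariate, 23 with DESeq2, 24 with the library set as a term, and 8 to 13 when 1 library was left out. Of the neighbours of Rap1gap2 2 passed; 1 passed with the replicate block, 4 with the library set as a term, 0 within the Rps3a3-low libraries and 1 to 2 when 1 library was left out. The fits within the Rps3a3-low set and those without 1 library had fewer libraries than the full fit, and the cause of the other changes was not tested. The replicate block ended the call of no member, and the number of all genes called was 888 with it and 1030 without, and the numbers did not pair the libraries, so the block is given here only. For the library set, 1 member passed with DESeq2 and 0 with any 1 library left out. The genotype differences of Arid1a and of the Rap pathway genes and neighbours that passed and are named kept their sign under the alternatives run, which were not run on the marker genes or the genes nearest in pattern. Of the members not called, 5 had a genotype difference whose sign turned under at least 1 alternative (Sipa1, Rapgef1, Rapgef2, Rapgef3 and Rapgef5, between -0.20 and 0.19), and so did the library-set differences of Rap1gap2 and Rap1gap. Genes under about 1 CPM, such as Ccdc92b, have wide intervals at these depths.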
